A study of Mus musculus with 4 samples.

Results

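Fat-rich spots were examined in 4 spatial transcriptome sections of tibial muscle, and they were chosen by the share of a spot's RNA that came from 5 adipocyte genes, Adipoq (adiponectin), Plin1 and Cidec (proteins of the lipid droplet surface), Cfd (the protease adipsin) and Retn (resistin). In each section the spots with at least 2000 UMIs (unique molecular identifiers, 1 per captured RNA molecule) were ranked by that share, and those at or above the 95th percentile of their own section were taken. This gave 512 fat-rich spots of 10212 at that depth and 10835 deposited, with 105 of 2090 on day 0, 108 of 2154 on day 1, 151 of 3020 on day 3 and 148 of 2948 on day 7. All sections came from Nse-Bmp4 mice of strain C57BL/6, 6 to 8 weeks old, in which a Bmp4 transgene is driven by the promoter of neuron-specific enolase and bone forms in muscle after injury. Day 0 was uninjured muscle, and days 1, 3 and 7 were counted from injury, which the study's methods give as an injection of cardiotoxin, a snake toxin that kills muscle fibres. All 4 groups carried the transgene, uninjured muscle included, so it is common to every value below. According to the labels 3 tibial muscles were mixed per group, yet each day has 1 section, so the variation from animal to animal is not known here and no test was made. Spots of a section are not replicates, all intervals are exact and cover counting error at 95% alone, and a gene was called higher or lower between groups of spots when its level differed at least 2-fold.

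White adipocytes store triglyceride in a single large droplet, release fatty acids from it by lipolysis, and make new fatty acids when glucose and insulin are plentiful. They also secrete hormones and plasma proteins, among them adiponectin, leptin, adipsin and haptoglobin. In limb muscle they lie between bundles, along vessels and nerves and under the fascia, and they can arise from fibro-adipogenic progenitors of the muscle stroma. A spot covers several cells, so a fat-rich spot is a small area with fat in it and can hold fibres, vessels, nerves and immune cells.

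The share of RNA that placed a spot among the members differed between the sections. The 95th percentile stood at 0.0866, 0.173, 0.0409 and 0.0834% of a spot's UMIs on days 0, 1, 3 and 7. The lowest members held 0.0867, 0.173, 0.0411 and 0.0836%, and the highest spots left out held 0.0865, 0.172, 0.0409 and 0.0829%. The median member held 0.275, 0.395, 0.187 and 0.189% and the highest 2.66, 3.28, 3.90 and 2.76%. The cut was thus lowest on day 3 and highest on day 1, and there was no gap in the values at any of the 4 cuts. Single members had 3, 4, 1 and 2 marker UMIs at the lowest, 35, 16.5, 15 and 15 at the median and 662, 148, 403 and 598 at the highest, and 4, 1, 17 and 12 members rested on fewer than 5. In the rest of the sections 61.2, 77.0, 76.1 and 49.3% of spots had no marker UMI, and the members held 81.9, 76.2, 89.1 and 66.5% of all marker UMIs of their section. The 10 members richest in marker UMIs carried 44.0, 29.5, 38.9 and 44.0% of the members' marker UMIs, so a few spots weigh heavily in every sum.

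**Figure D1:**
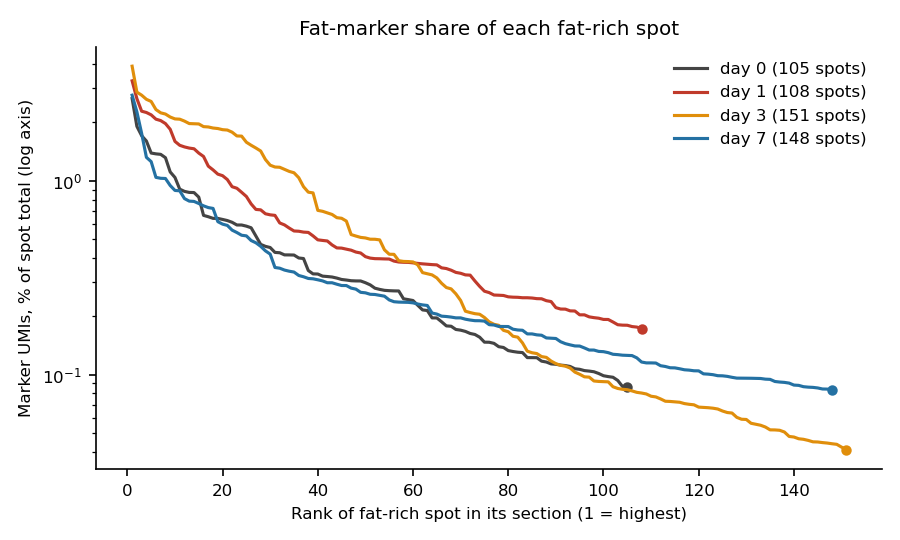
Marker UMIs as a percentage of a spot's total (log axis) for every fat-rich spot, ranked within its section, with 1 line per day and a filled circle at the 95th percentile. Day 3 has the highest spot, at 3.90%, and also the lowest cut, at 0.0409%.

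The sections differed in depth, and so did members and rest. Median UMIs per fat-rich spot were 11834, 3943.5, 8433 and 8028.5, against 21332, 7678, 16666 and 12571 in the rest, with medians of 3072, 1938.5, 2654 and 2928 and 3732, 2065, 3853 and 3263 genes. Mitochondrial transcripts took 10.8, 6.63, 9.85 and 7.53% of member UMIs and 13.6, 18.3, 11.7 and 11.9% in the rest. On day 1, 513 spots fell short of 2000 UMIs, against 17, 9 and 84 on days 0, 3 and 7. Spot barcodes, which give positions on the capture area, were shared by 1539 to 2311 spots between pairs of sections, and from 0 to 7 of them were fat-rich in both. Levels below are CPM (counts per 1000000 UMIs, the 5 markers left out of the total, summed over the spots of a group). The comparison of members with the rest rests on the same counts as their choice and is given as a description. When the UMIs of each spot were split at random, and members were chosen with one part and measured in the other, the summed marker level was 4723, 5676, 5703 and 3804 CPM in members and 43.5, 63.4, 18.8 and 79.8 CPM in the rest.

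The members carried the wider adipocyte programme and not the chosen markers alone. The adipocyte core list (20 genes of lipid storage and fat cell identity, none of them a marker of the choice) stood at 6301, 4932, 4357 and 3179 CPM in fat-rich spots and 290.0, 219, 221 and 304 CPM in the rest. The ratio was 21.7 (21.2 to 22.3) on day 0, 22.5 (21.4 to 23.7) on day 1, 19.7 (19.1 to 20.3) on day 3 and 10.5 (10.1 to 10.8) on day 7. Of its genes with enough counts to be compared, 8 of 10, 4 of 4, 7 of 8 and 8 of 8 were at least 2-fold higher in members, and their median log2 ratio was 4.10, 4.43, 3.11 and 2.35 against 0.26, 0.43, -0.12 and 0.29 for all genes compared. Over all genes compared, 698 of 8494 (8.22%), 1172 of 4691 (25.0%), 283 of 9527 (2.97%) and 944 of 9860 (9.57%) were at least 2-fold higher, and 48 (0.565%), 372 (7.93%), 590 (6.19%) and 186 (1.89%) at least 2-fold lower. These splits depended on the scaling, since TMM factors gave 328, 399, 293 and 404 genes higher and 236, 1493, 557 and 677 lower, with every log2 ratio moved by -0.38, -0.86, 0.023 and -0.39. Scd1 (stearoyl-CoA desaturase, which makes monounsaturated fatty acids) carried much of the core list, and without it the list ratio was 12.1, 13.1, 7.79 and 5.69. Of the 11 genes of the brown and beige fat list, Ucp1 and Cidea were among those at or near 0. Ucp1, the uncoupling protein of brown fat, had 0 UMIs in the members of all 4 sections, which allows up to 1.80, 6.07, 2.13 and 2.0 CPM, and Cidea, also typical of brown fat, had 0, 0, 3 and 0 UMIs. Cox8b and Cox7a1 held most of the list, with 1547, 178, 1070 and 481 and 910, 121, 467 and 242 UMIs in members. The whole list stood at 1488, 615, 1107 and 503 CPM in members and 1966, 1722, 1068 and 1155 CPM in the rest. Over 3 bands of rising score among the members it stood at 1593, 1462 and 1348 CPM on day 0 and 780, 412 and 523 CPM on day 1. On day 3 those bands stood at 1324, 1100 and 509 CPM and on day 7 at 630, 515 and 298 CPM. The list thus did not climb with the fat markers.

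The genes that led the comparison recurred from day to day. Cyp2e1 (a cytochrome P450) stood at 199, 370.1, 76.0 and 202 CPM in fat-rich spots and 1.90, 2.85, 0.366 and 4.03 CPM in the rest. Wfdc21 stood at 88.6, 93, 219 and 105 CPM against 0.830, 0.951, 0.841 and 1.62 CPM, and the members with at least 1 of its UMIs numbered 55, 28, 48 and 59. Both genes were among the 10 with the highest ratio on all 4 days. Pck1, which supplies glycerol for triglyceride in fat, led on days 0 and 1 with 104 and 148 CPM, and it stood at 27.7 and 27.3 CPM on days 3 and 7. Mrap and Adig, small membrane proteins of adipocytes, stood at 64.7, 123, 71.0 and 32.7 and at 66.5, 103, 83.1 and 46.6 CPM in members and between 0.293 and 3.68 CPM in the rest. Slc7a10 (an amino acid transporter), Arxes2 and Ubd (a ubiquitin-like protein) entered the leading 10 on day 1 alone. Ubd had 32 UMIs in 23 members on day 1 and 0, 1 and 0 UMIs in the members of days 0, 3 and 7.

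Other genes also led the comparison, among them Cdo1, a gene of the core list. Apoc1, a lipoprotein component, stood at 121, 78.9, 109 and 74.6 CPM in members and 1.30, 1.84, 3.24 and 2.11 CPM in the rest. Cdo1, which oxidises cysteine, stood at 165, 80.9, 39.8 and 74.6 and 2.47, 1.08, 1.15 and 4.0 CPM, with its day 0 level the highest. Serpina3c, of the cluster of protease inhibitors whose near copies could share reads, stood at 51.5, 111, 62.5 and 37.3 and 1.64, 1.14, 1.70 and 1.89 CPM. Fcor, a cofactor of the forkhead protein Foxo1 in fat, stood at 34.7, 32.4, 67.5 and 22.7 and 1.42, 1.40, 2.41 and 1.84 CPM. Cyp2f2 and Gdf10, a secreted protein of the TGF-beta family, led on day 7 alone, with 81.3 and 277 CPM in members and 3.33 and 25.1 CPM in the rest.

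The programme was not even among the members. With the members split into 3 bands of score, the core list of day 0 stood at 2193 CPM in the 52 spots between the 95th and 97.5th percentiles, 6218 CPM in the 32 spots between the 97.5th and 99th, and 13148 CPM in the 21 spots at or above the 99th. On day 1 the same bands (54, 32 and 22 spots) stood at 2304, 4619 and 13939 CPM. On day 3 (75, 45 and 31 spots) the values were 578, 2894 and 16654 CPM. On day 7 (74, 44 and 30 spots) they were 944, 2286 and 7519 CPM. The step between the bottom and top bands was widest on day 3, where the bottom band had little fat RNA and the top band the most of all sections. Per spot, the core list on day 3 ran from 0 through a median of 871 to 39103 CPM, against 775, 3729 and 28037 CPM on day 0.

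**Figure D2:**
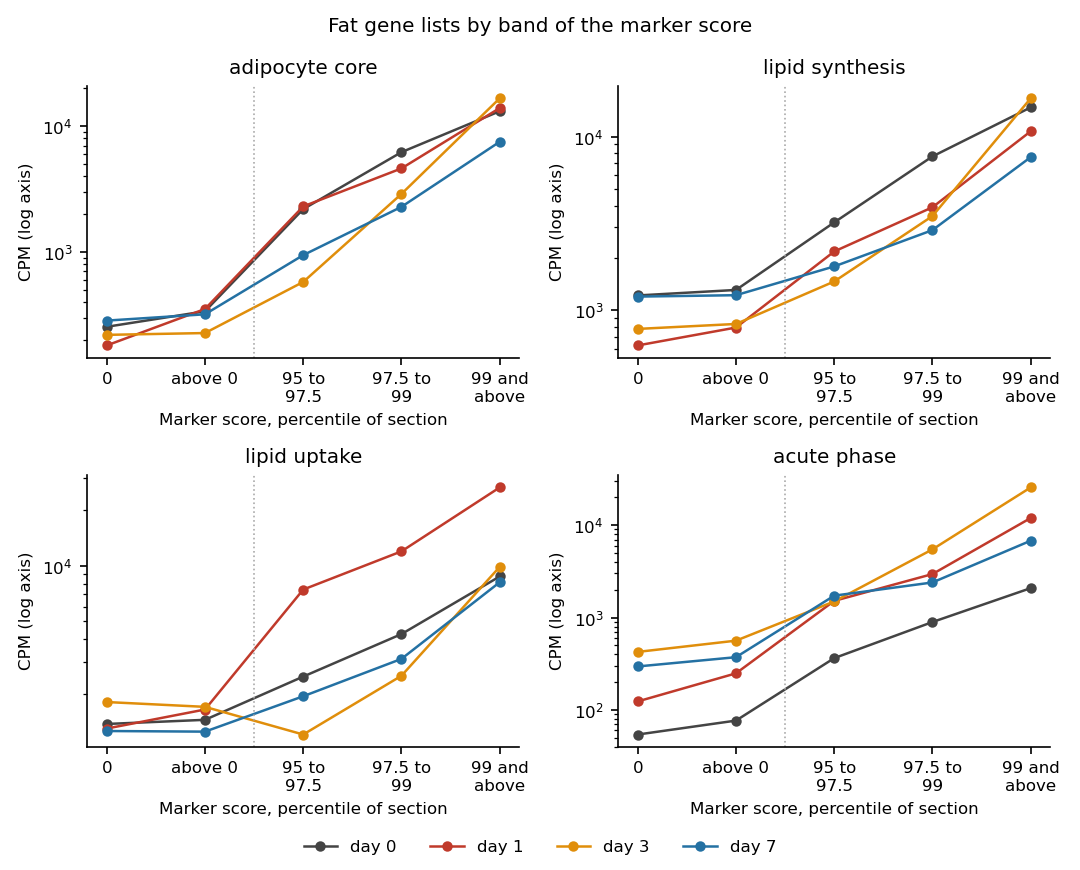
Summed level in CPM (log axis) of 4 gene lists against the band of marker score within each section, with 1 line per day and members to the right of the dotted line. The core, synthesis and uptake lists climb through the member bands on all 4 days, and the acute-phase list reaches 25640.3 CPM in the top band of day 3.

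The comparison between days set the fat-rich spots of each injured section against those of day 0. In bulk sums of this kind, fewer fat cells and less RNA per fat cell cannot be told apart. Over all genes compared, 1510 of 5764 (26.2%) were at least 2-fold higher on day 1 and 584 (10.1%) lower. On day 3, 1374 of 9338 (14.7%) were higher and 671 (7.19%) lower, and on day 7, 2760 of 10021 (27.5%) were higher and 258 (2.57%) lower. TMM factors gave 776, 1051 and 1014 higher and 1337, 940 and 874 lower, and they moved every log2 ratio by -0.58, -0.17 and -0.57. The median log2 ratio of all genes compared was 0.44, 0.18 and 0.58.

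The core list was lower than on day 0 at each injured day, with log2 ratios of -0.35 (-0.42 to -0.29), -0.53 (-0.58 to -0.49) and -0.99 (-1.04 to -0.94). Of its genes compared, 6 of 18 were at least 2-fold higher and 5 lower on day 1, 0 of 20 higher and 11 lower on day 3, and 0 of 20 higher and 9 lower on day 7. Over all genes compared, 26.2, 14.7 and 27.5% were higher and 10.1, 7.19 and 2.57% lower. The median log2 ratio of the core genes was 0.16, -1.08 and -0.89, against 0.44, 0.18 and 0.58 for all genes. The direction of the summed core list on day 3 turned with the cut, and on day 1 the list was near its day 0 level at the highest cut. In the spots at or above the 99th percentile the log2 ratio was 0.084 on day 1, 0.34 on day 3 and -0.81 on day 7. With the day 0 cut used in every section, which left 105, 153, 101 and 141 members, it was -0.74, 0.12 and -0.93. Per UMI of Adipoq, Plin1 and Cidec together, a scale relative to fat RNA itself, it was -1.06, -0.0082 and -0.52. Those 3 genes are among the 5 markers that chose the spots, so the scale is not independent of the choice. Day 7 was below day 0 under all of these settings, and day 3 was not. In the rest of the sections the core list was -0.40, -0.39 and 0.067 from day 0.

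**Figure D3:**
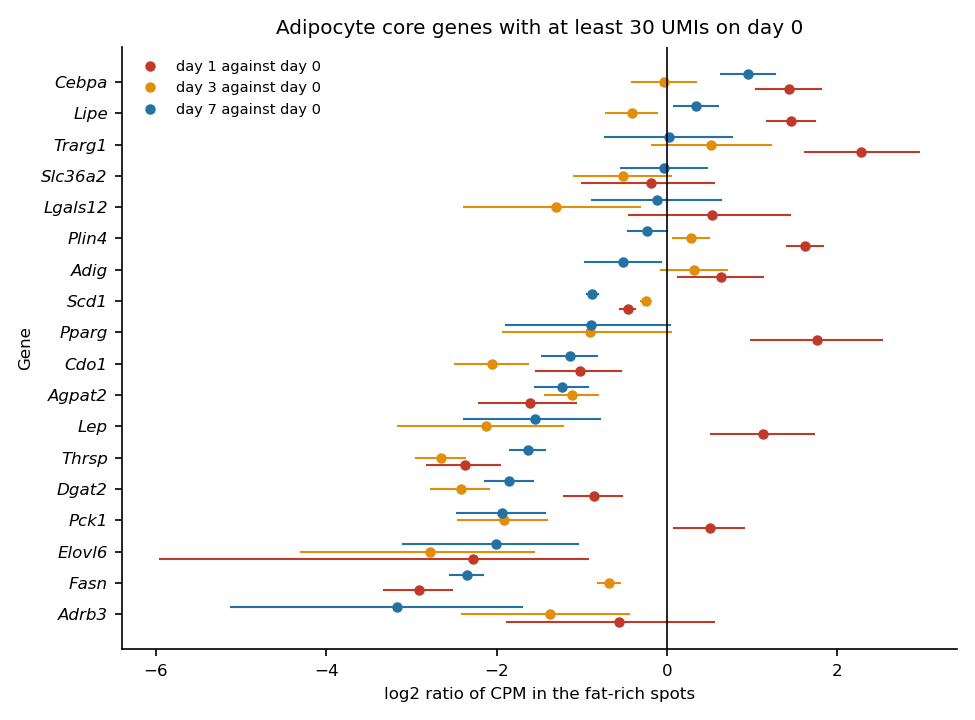
log2 ratio of CPM in the fat-rich spots of days 1, 3 and 7 to those of day 0 for the 18 core genes with at least 30 UMIs on day 0, with counting intervals at 95% as lines. Lipe, Plin4, Cebpa, Trarg1 and Lep are right of 0 on day 1, while Fasn, Thrsp and Agpat2 are left of 0 on all 3 days.

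Per spot total, the summed RNA of fatty acid synthesis genes was lower in the members after injury. The lipid synthesis list (19 genes) stood at 7593, 4119, 4979.9 and 3740.3 CPM in fat-rich spots, with log2 ratios to day 0 of -0.88, -0.61 and -1.02. Of 19 genes compared, 8, 11 and 10 were at least 2-fold lower on days 1, 3 and 7 and 0 were higher, with a median log2 ratio of -0.92, -1.05 and -1.0. Over all genes compared, 10.1, 7.19 and 2.57% were that much lower, and the median was 0.44, 0.18 and 0.58. Fasn, the fatty acid synthase, stood at 865, 115, 542 and 169.9 CPM in members and 22.1, 16.1, 38.0 and 32.0 CPM in the rest. Its log2 ratios to day 0 were -2.91 (-3.32 to -2.53), -0.68 (-0.80 to -0.55) and -2.35 (-2.55 to -2.16). The median member of day 0 had 416 CPM of Fasn, and on day 1 the median member had 0, with Fasn UMIs in 36 of 108 spots. Acly, which makes acetyl-CoA for synthesis in the cytosol, stood at 287, 60.7, 120.0 and 143 CPM. Acaca, the carboxylase that commits acetyl-CoA to fatty acids, stood at 132, 72.8, 108 and 34.7 CPM. Acss2, which makes acetyl-CoA from acetate, stood at 94.6, 14.2, 44.7 and 22.7 CPM, and Thrsp, a lipogenic gene regulated by thyroid hormone and glucose, at 513, 99.1, 81.7 and 165 CPM. All 5 genes had their highest member level on day 0. In the rest of the sections, which hold a little fat RNA, the list was -0.92, -0.66 and -0.053 from day 0, values close to those of the members on days 1 and 3 and not on day 7.

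The top band separated day 3 from days 1 and 7. At or above the 99th percentile Fasn stood at 1822, 179, 1897 and 376 CPM on days 0, 1, 3 and 7, so that its day 3 level there was close to that of day 0. Acaca gave 289.6, 128, 339 and 78.5 CPM in the same spots and Scd1 7004, 7333, 11674 and 4529 CPM. Thrsp gave 1159, 421, 212 and 402 CPM and Dgat2, which makes the last step of triglyceride synthesis, 668, 281, 138 and 228 CPM, and both were below their day 0 level on all 3 injured days. The lipid synthesis list as a whole had a log2 ratio of 0.17 on day 3 in that band, against -0.61 in all members. Per UMI of Adipoq, Plin1 and Cidec the log2 ratios to day 0 were -3.62, -0.15 and -1.88 for Fasn, -1.57, 0.23 and -1.46 for Acaca, -2.95, -0.74 and -0.54 for Acly and -1.17, 0.27 and -0.41 for Scd1. On this scale the shortfall of synthesis genes was largest on day 1 for Fasn, Acaca and Acly. The whole synthesis list was -1.59, -0.085 and -0.55 from day 0, so on day 3 it was near its day 0 level on this scale.

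The lipid uptake and lipolysis lists ran the other way on day 1. The lipid uptake list (9 genes) stood at 4673, 11992, 3258 and 4024 CPM, with a log2 ratio to day 0 of 1.36 (1.31 to 1.41) on day 1 against -0.031 in the rest of the section. On days 3 and 7 it was -0.52 and -0.22, and the day 3 value turned to 0.17 in the top band. Fabp4, the fatty acid carrier of adipocytes, held most of it, with 2793, 8801, 2065 and 2645 CPM in members and 617, 631, 455 and 495 CPM in the rest. Its median per member was 2008, 4727, 595 and 1686 CPM and its maximum 13070, 48764, 21536 and 21406 CPM. Lpl, the lipase that frees fatty acids from lipoproteins, stood at 689.8, 993, 207 and 410.5 CPM and Cd36, a fatty acid receptor, at 455, 750.3, 166 and 325 CPM. Angptl4, an inhibitor of Lpl induced by fasting and low oxygen, stood at 54.5, 386, 391 and 32.0 CPM and was thus high on days 1 and 3 in members. In the rest it stood at 9.60, 41.9, 135 and 11.5 CPM, highest on day 3. Per UMI of Adipoq, Plin1 and Cidec the uptake list was 0.65, 0.0036 and 0.25 from day 0 on the log2 scale. On that scale Fabp4 was 0.95, 0.088 and 0.39 from day 0, Lpl -0.18, -1.22 and -0.28 and Cd36 0.013, -0.93 and -0.019, so that the day 1 excess was smaller for the list and Fabp4 and was not seen for Lpl and Cd36.

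The lipid droplet and lipolysis list (13 genes) was 1.38 above day 0 on the log2 scale on day 1 and -0.25 and -0.30 on days 3 and 7. Lipe, the hormone-sensitive lipase, stood at 144, 394, 108 and 182 CPM, and in the top band at 255, 1122, 343 and 390.4 CPM. Pnpla2, the lipase that starts lipolysis, stood at 275, 366, 199.5 and 217 CPM, and G0s2, which inhibits it, at 165, 315, 88.1 and 84.0 CPM. Plin4, a droplet coat protein, stood at 225, 692, 273 and 192 CPM. All 4 had their highest member CPM on day 1. Per UMI of Adipoq, Plin1 and Cidec, however, the log2 ratios to day 0 were 0.75, 0.11 and 0.81 for Lipe, -0.30, 0.062 and 0.13 for Pnpla2, 0.22, -0.38 and -0.51 for G0s2 and 0.91, 0.80 and 0.24 for Plin4, so that Pnpla2 was lower on day 1 and Lipe was as high on day 7 as on day 1. The list was 0.68, 0.27 and 0.17 on that scale. Plin2, a droplet coat protein that many cell types make, including macrophages loaded with lipid, was at 61.1, 1108, 137 and 50.6 CPM. On day 1 it was lowest where the fat markers were highest, with 1106, 1518 and 242 CPM in the 3 bands, whereas Lipe, at 189, 359 and 1122 CPM, was highest there. For the droplet list of day 3 the direction turned in the top band, with a log2 ratio of 0.51.

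Regulators, receptors and hormones of fat followed no single course. Pparg, the nuclear receptor that directs adipocyte differentiation, had 31, 31, 14 and 15 UMIs in members, or 18.6, 62.7, 9.94 and 10.0 CPM, and its day 1 log2 ratio was 1.76 (0.99 to 2.52). Cebpa, its partner in that programme, stood at 80.2, 216, 78.1 and 155 CPM in members and 5.60, 14.4, 57.6 and 33.5 CPM in the rest. Per spot total the adipogenic factor list (13 genes) as a whole stood within 0.21 of day 0 on all 3 days on the log2 scale, and its direction on day 1 turned with the scaling, at -0.37 with TMM factors. Per UMI of Adipoq, Plin1 and Cidec the list was -0.50, 0.73 and 0.54 from day 0, so it was not steady on that scale. Lep, the satiety hormone leptin, had 62, 40, 12 and 19 UMIs, or 37.1, 80.9, 8.52 and 12.7 CPM, and was at most 0.951 CPM in the rest. Per UMI of Adipoq, Plin1 and Cidec its log2 ratios to day 0 were 0.42 (-0.20 to 1.01), -1.60 and -1.08. Adrb3, the adrenergic receptor of fat cells, had 40, 8, 13 and 4 UMIs. Nnat, neuronatin, stood at 91.6, 483, 37.6 and 228 CPM, with its day 1 and day 7 levels above those of days 0 and 3, and in the top band at 203, 1530.4, 117 and 612 CPM in the same order. Rarres2, the chemoattractant chemerin, stood at 162, 502, 265 and 236 CPM in members and 73.0, 38.2, 37.5 and 64.1 CPM in the rest. Adiponectin itself, a marker of the choice and so only described, stood at 372, 482, 255 and 267 CPM.

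The summed RNA of acute-phase proteins was more abundant in the members on every injured day than on day 0, on day 1 mostly through Hp. The list (10 genes of plasma proteins and their regulators) stood at 977, 3660.4, 7289 and 3342 CPM in fat-rich spots and 63.7, 152, 458 and 337 CPM in the rest. Its log2 ratios to day 0 were 1.91, 2.90 and 1.77 in members and 1.25, 2.85 and 2.40 in the rest, so the rest showed an increase too, from a level far below, and on day 7 a larger one. Of 6, 9 and 9 genes compared, 2, 7 and 6 were at least 2-fold higher than day 0 in members, and 1, 0 and 1 were lower, with a median log2 ratio of 0.24, 3.24 and 1.89. Over all genes compared 26.2, 14.7 and 27.5% were higher and 10.1, 7.19 and 2.57% lower, with medians of 0.44, 0.18 and 0.58, so on day 1 the list's count was near that of all genes and its median below. Per UMI of Adipoq, Plin1 and Cidec the list's log2 ratios to day 0 were 1.2, 3.42 and 2.24. Hp, haptoglobin, which binds free haemoglobin, held most of the list. It stood at 532, 2900.0, 5026 and 1708 CPM in members and 5.15, 38.6, 24.0 and 40.0 CPM in the rest, a ratio of 103 (89.1 to 121), 75.1 (68.2 to 82.7), 209.6 (198 to 223) and 42.7 (40.1 to 45.4). Single members ran from 0 on every day, through medians of 276, 1495, 969.8 and 689 CPM, to 4659, 26557, 36070.1 and 17309 CPM. It was found in 87, 101, 143 and 139 members and 7.76, 21.0, 29.6 and 34.9% of the other spots. Within day 3 it climbed with the score, from 392 to 3270.1 and 20059 CPM over the 3 bands, and per UMI of Adipoq, Plin1 and Cidec its log2 ratios to day 0 were 1.74, 3.76 and 2.15. Haptoglobin was higher on all 3 injured days per spot total and per UMI of those 3 genes, which also served to choose the spots.

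Serpina3n, a protease inhibitor of the acute phase, stood at 30.5, 275, 722 and 229 CPM in members and 1.14, 18.3, 69.7 and 28.3 CPM in the rest. It belongs to a gene cluster of close copies, among which the counting could divide reads. C3, the central complement protein, stood at 327, 324, 865 and 1212 CPM, and C4b, another complement protein, at 163, 526, 675 and 655 CPM against 10.0, 7.86, 32.5 and 55.6 CPM in the rest. Lcn2, which binds bacterial siderophores, had 3, 14, 241 and 27 UMIs in members, or 1.80, 28.3, 171 and 18.0 CPM, with 88 of 151 members positive on day 3. Saa3, serum amyloid made by fat and macrophages, had 2, 12, 136 and 40 UMIs, and on day 3 it stood at 18.9, 42.1 and 378 CPM over the bands. Orm1 (orosomucoid) did not share the pattern, with 29.9, 14.2, 20.6 and 11.3 CPM. Serpina3n, Lcn2 and Saa3 peaked on day 3, and C3 was highest on day 7.

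**Figure D4:**
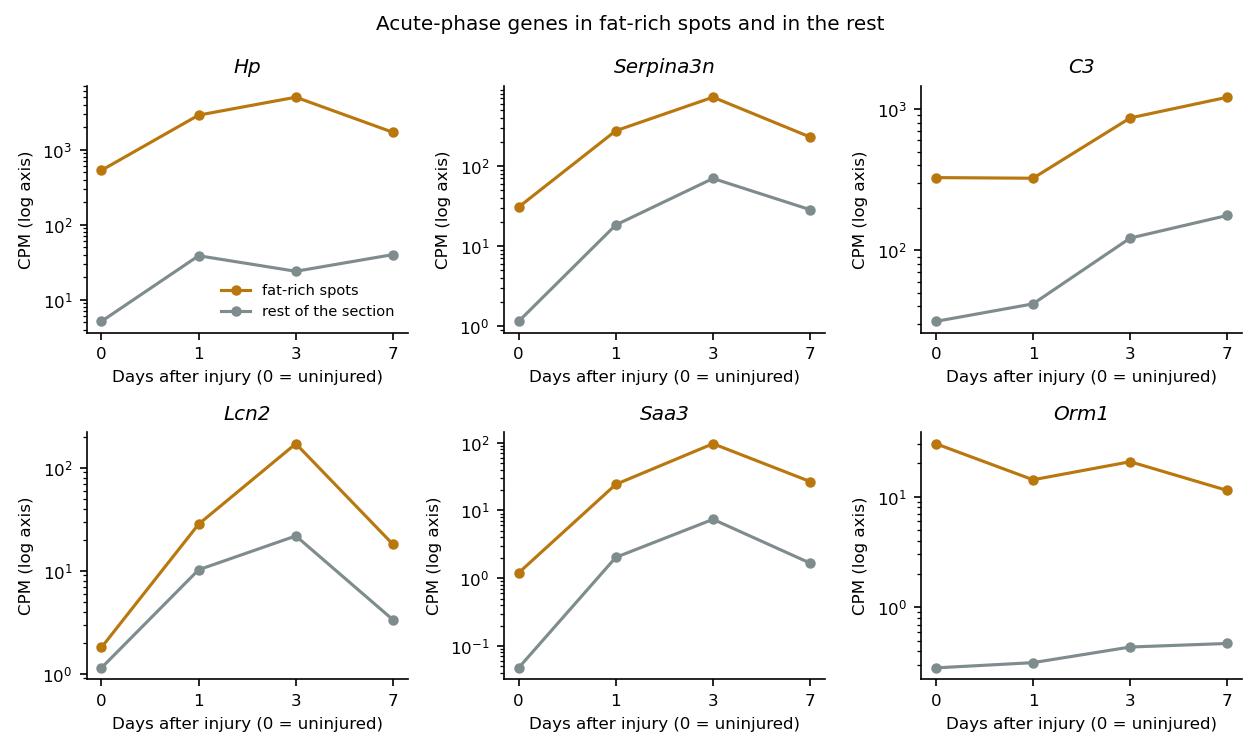
Level in CPM (log axis) of 6 acute-phase genes in the fat-rich spots and in the rest of the section against days after injury. Each gene is higher in the fat-rich spots on all 4 days, and Hp reaches 5026 CPM in them on day 3 against 24.0 CPM in the rest.

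Macrophage RNA stood in different relation to the fat on different days. The macrophage list (11 genes) was at 1027, 3439.9, 5426 and 3475 CPM in members and 406, 1555, 8840.4 and 2098 CPM in the rest, giving ratios of 2.53, 2.21, 0.614 and 1.66. It was thus above the rest on days 0, 1 and 7 and below it on day 3, when the rest of the section had the most macrophage RNA. On day 1 the excess lay in the lower bands, at 3518 and 4482 CPM, and the top band had 969 CPM, so that the ratio was 0.600 with that band alone. The resident macrophage list (7 genes) behaved otherwise, at 356, 366, 1258 and 683 CPM in members and 161, 178, 356 and 229 CPM in the rest. On day 3 its ratio was 3.54 (3.37 to 3.71). Cd163, a scavenger receptor for haemoglobin-haptoglobin complexes, stood at 24.5, 24.3, 141 and 63.3 CPM in members and 10.3, 8.75, 13 and 15 CPM in the rest. Retnla, a secreted protein of alternatively activated macrophages and of fat tissue, stood at 109.6, 6.07, 276 and 49.3 CPM in members and 58.7, 17.6, 13.1 and 25.0 CPM in the rest. Cd209g, a lectin of the DC-SIGN family whose copies could share reads, stood at 16.2, 2.02, 52.5 and 53.3 CPM and was among the 10 leading genes of day 3.

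The lipid-handling macrophage list (13 genes) stood at 3396, 11131, 9515 and 8329 CPM in members and 1497, 4139, 16037 and 5420.4 CPM in the rest. Of its 13 genes compared on day 3, 0 were at least 2-fold higher in members and 5 lower, against 2.97 and 6.19% of all genes. Spp1, osteopontin, stood at 0.599, 245, 180.4 and 46.6 CPM in members and 0.237, 114, 989 and 99 CPM in the rest, and Lgals3, galectin-3, at 55.7, 1163, 417 and 171 and 7.14, 412, 856 and 199 CPM. Spp1 had 1 UMI in the members of day 0. The log2 ratio of day 3 to day 0 for Lgals3 was lower by 4.0 in members than in the rest. Neutrophil RNA was most abundant on day 1. The neutrophil list stood at 22.2, 677, 37.6 and 48.0 CPM in members and 5.76, 168, 81.6 and 21.0 CPM in the rest. On day 1 its bands stood at 651, 986 and 102 CPM. The ratio to the rest was 0.554 in the spots richest in fat RNA. There 1 UMI made 12.8 CPM, so that ratio rests on few UMIs and a level below the rest is uncertain. S100a9, a calcium-binding protein of neutrophils, had 52, 58 and 1 UMIs in the 3 bands. Ccl7, a monocyte chemoattractant, had 2, 181, 238 and 76 UMIs in members, and Ccl2, another, had 1, 124, 184 and 35. In CPM both were higher on day 1 than on day 3. With day 0 entered at 3 UMIs, the ratios to day 0 were 204 and 94.1 for Ccl7 and 140 and 72.7 for Ccl2. The log2 ratio of Ccl7 in members minus that in the rest was -2.28 on day 1 and -3.59 on day 3.

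**Figure D5:**
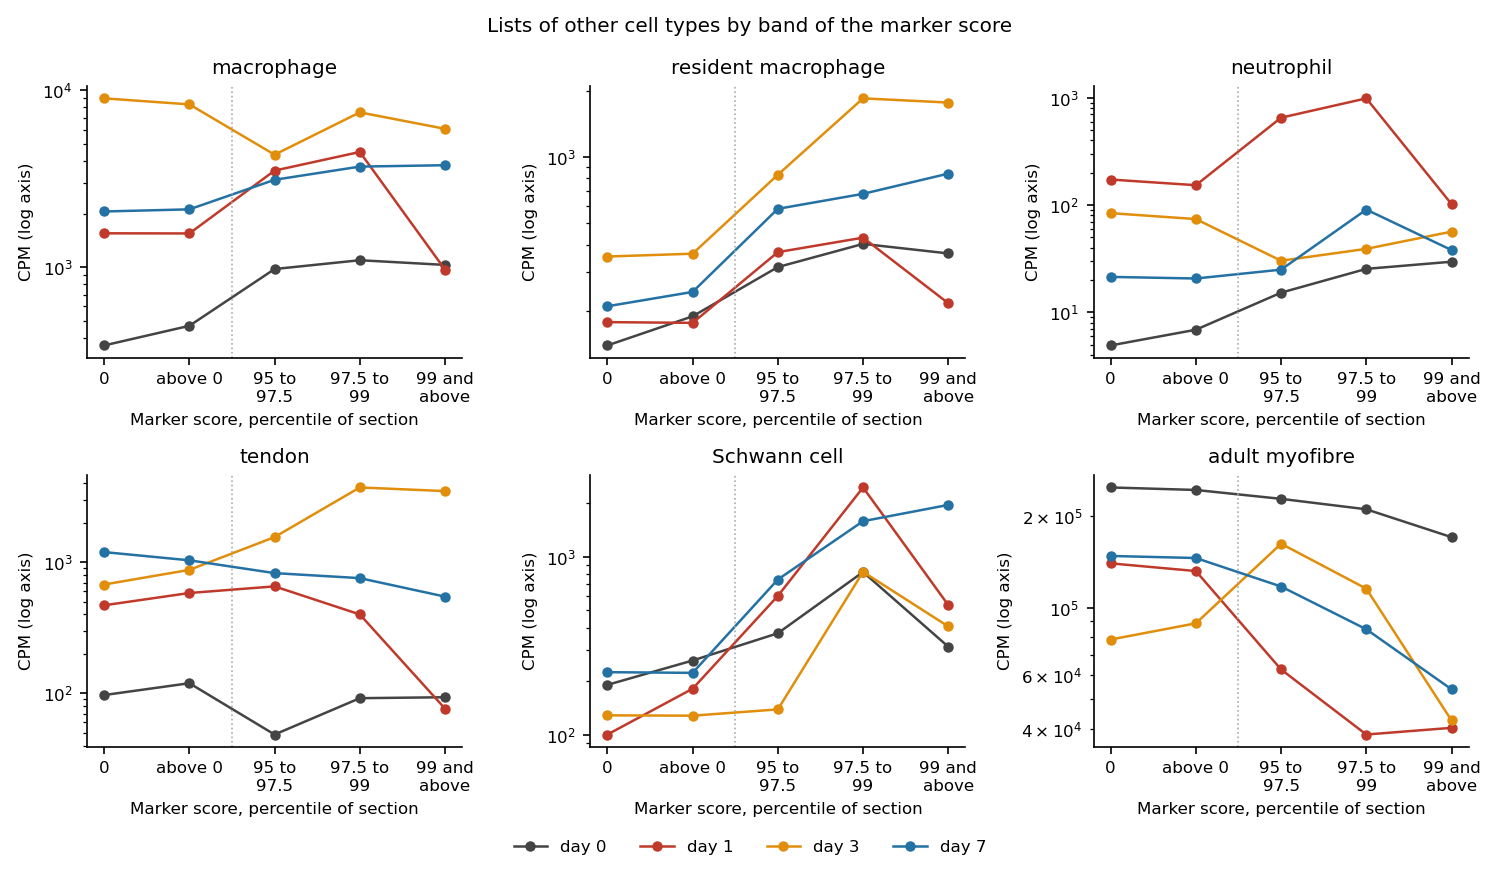
Summed level in CPM (log axis) of 6 lists of other cell types against the band of marker score within each section, with 1 line per day and members to the right of the dotted line. On day 1 the macrophage and neutrophil lists drop in the top band, to 969 and 102 CPM, and on day 3 the tendon and resident macrophage lists are higher in members than in the rest.

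The progenitor list of the muscle stroma was higher in the members than in the rest on all 4 days, and the tendon list on day 3. The fibro-adipogenic progenitor list (17 genes) stood at 4406, 4542, 5365 and 7573 CPM in members and 2288, 980.2, 2055 and 2979 CPM in the rest. Pi16, a marker of adventitial fibroblasts, stood at 64.1, 68.8, 661 and 519.8 CPM in members and 73.6, 10.5, 49.98 and 155 CPM in the rest, and 119 of 151 members had it on day 3. Myoc, myocilin, which fibroblasts of nerve and muscle sheaths make, stood at 86.2, 20.2, 752 and 57.3 and 63.7, 16.9, 41.0 and 63.4 CPM. Fmod, a collagen-binding proteoglycan of tendon, stood at 12.6, 117, 1055 and 163 and 16.2, 88.4, 76.4 and 333 CPM. Comp, a matrix protein of tendon and cartilage, stood at 1.2, 18.2, 420.4 and 313 and 0.996, 9.07, 24.5 and 386 CPM, and Chad, chondroadherin, at 0.599, 14.2, 116 and 1.33 and 1.21, 13, 6.75 and 8.95 CPM. Prg4, the lubricin of gliding surfaces, stood at 0.599, 192, 457 and 65.3 and 1.16, 105, 226 and 30.2 CPM. The tendon list of day 3 had a ratio of 3.39 (3.27 to 3.51) over the rest, with 4 of 6 genes at least 2-fold higher and 1 lower, against 2.97 and 6.19% of all genes compared. The ratio on day 7 was 0.657 (0.618 to 0.697), with 0 of 6 higher and 3 lower, against 9.57 and 1.89% of all genes. Tendon matrix RNA was thus higher in the members than in the rest on day 3 and not on day 7. Where in the section those spots lie was not tested.

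The members were also set against stroma-rich spots, as an example of connective tissue in general. Those spots were taken in the same manner from 5 fibroblast genes (Dcn, Lum, Mfap5, Col14a1 and Clec3b), and 12, 17, 27 and 17 of them were also fat-rich and were left with the members. Against the remaining stroma-rich spots the core list had a ratio of 20.3, 15.9, 18.6 and 8.82 and the acute-phase list 5.67, 9.28, 6.05 and 5.68. For the progenitor list the ratio was 0.707, 1.47, 1.16 and 1.80, and for the fibrous matrix list 0.600, 0.859, 0.376 and 0.371. The resident macrophage list gave 0.845, 1.44, 3.12 and 2.23. The Schwann cell list gave 1.14, 1.71, 1.04 and 3.10 and the lymphatic list 0.837, 0.803, 1.96 and 3.76. Lymphatic RNA was thus not above that of stroma-rich spots on days 0 and 1. Acute-phase RNA was higher in members than in stroma-rich spots on all 4 days, while RNA of the fibrous matrix was lower. Dcn and Lum of that list are also among the genes that chose the stroma-rich spots. The part that cell number plays in these ratios was not tested.

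The cartilage programme of day 7 lay mostly outside the fat. The chondrogenic list stood at 630.4 CPM in members and 1811 CPM in the rest, and 9 of 10 genes compared were at least 2-fold lower in members, against 1.89% of all genes. Col2a1, the collagen of cartilage, stood at 196 CPM against 635 CPM, and Acan, aggrecan, at 123 against 299 CPM, with 0, 0, 0 and 184 UMIs in the members of days 0, 1, 3 and 7. Over the member bands of day 7 the list stood at 691, 685 and 481 CPM. Even so, Col2a1 and Acan were among the genes that differed most from day 0 within the members. The osteogenic list stood at 171 and 339.9 CPM on day 7.

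Nerve, lymphatic and, except on day 3, mast cell genes were higher in the members than in the rest, and all 3 lists had their highest member level on day 7. The Schwann cell list (9 genes) stood at 494, 1219, 354 and 1333 CPM in members and 221, 118, 128 and 224 CPM in the rest. A few spots held much of it, since the 10 members richest in the list carried 48, 79.4, 56.5 and 64.3% of its member UMIs. The mast cell list (7 genes) stood at 75.4, 30.3, 7.81 and 317 CPM in members and 30.5, 3.30, 11.7 and 38.7 CPM in the rest. Mcpt4, a chymase of mast cells, had 43, 2, 2 and 208 UMIs in members, found on day 7 in 34 of 148. The lymphatic list (7 genes on 8 features, since Ccl21a has 2) stood at 67.7, 138, 514 and 819 CPM in members and 42.9, 107, 128 and 160.3 CPM in the rest. Its day 1 ratio was 1.28 with an interval of 0.991 to 1.63, which includes 1. In the top band alone the ratio was 0.830 on day 0, and on day 1 the list stood at 12.8 against 107 CPM, both from few UMIs. Prox1, the transcription factor that defines lymphatic vessels, had 2, 0, 3 and 43 UMIs in members. Ccl21a, a chemokine of lymphatic vessels, stood at 13.8, 4.04, 249 and 535 CPM, but its symbol is carried by 2 features and near copies exist, so its level is uncertain. Ccl8, a chemokine of resident macrophages and fibroblasts, stood at 93.4, 190.1, 427 and 802 CPM in members and 14.3, 112, 247 and 121 CPM in the rest.

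Muscle RNA filled much of the members' total. The adult myofibre list (12 genes) took 207045, 50845, 126950 and 89971.5 CPM in members and 245776, 137853, 81009 and 146414 CPM in the rest. It was below the rest on days 0, 1 and 7 and above it on day 3, with a ratio of 1.57. On day 3 it was 161968, 115319 and 42602 CPM over the bands, so that the top band alone gave a ratio of 0.517. Regenerating muscle genes were low in members, at 116, 84.9, 320.3 and 311 CPM against 132, 109, 956 and 882 CPM. The embryonic myosin Myh3 stood at 0.599, 12.1, 12.1 and 37.3 CPM in members and 1.78, 0.888, 109.8 and 75.2 CPM in the rest. The lowest ratios of day 0 belonged to slow fibre genes, with Tnnc1 at 28.1 against 71.6 CPM and Myh7, the slow myosin, at 43.1 against 91.2 CPM. Actc1, a muscle actin, was the gene or among the genes furthest below day 0 in members on all 3 injured days, at 4133, 70.8, 36.9 and 386 CPM, and the rest showed the same course, at 6144, 252, 146 and 947 CPM. With mitochondrial, haemoglobin and muscle list genes left out of the totals, the core list was -0.72, -0.71 and -1.27 from day 0 on the log2 scale.

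The genes furthest above day 0 in members differed with the day. On day 1 they were genes of inflammatory cells and chemokines, with Mpeg1, a pore-forming protein of macrophages, at 4.79, 364, 134 and 83.3 CPM, Chil3 at 0, 158, 40.5 and 0.666 CPM and the neutrophil chemokine Cxcl5 at 0, 131, 4.97 and 2.0 CPM on days 0, 1, 3 and 7. In the rest Mpeg1 stood at 3.20, 99, 368 and 90.1 CPM, so that its day 1 level was higher and its day 3 level lower in members. Timp1, an inhibitor of metalloproteinases, stood at 8.38, 362, 415 and 111 CPM in members and 4.89, 129, 316 and 93.7 CPM in the rest and was among the leading genes of day 3. On day 7 genes of matrix and its remodelling led. Sfrp2, a secreted modulator of Wnt signals, stood at 26.3, 16.2, 153 and 764 CPM in members and 15.3, 3.43, 104 and 267 CPM in the rest, whereas Tnc, tenascin-C, stood at 8.98, 38.4, 38.3 and 163 and 4.81, 24.9, 132 and 227 CPM and was lower in members on days 3 and 7. Cthrc1, a secreted collagen-associated protein, stood at 3.59, 12.1, 22.7 and 247 and 1.47, 3.36, 105 and 277 CPM.

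Some genes took a different course in members than in the rest of their section. Car4, a carbonic anhydrase of capillaries, stood at 14.4, 105, 4.97 and 5.33 CPM in members and 6.4, 3.62, 3.16 and 3.81 CPM in the rest, and its widest excess was on day 1. Timp4, made by fat and muscle vessels, stood at 42.5, 142, 17.0 and 49.3 and 44.5, 19.0, 3.04 and 21.8 CPM. Efemp1, a matrix protein of fibroblasts, stood at 22.2, 113, 39.8 and 129.9 and 13.9, 6.72, 18.0 and 25.7 CPM and Ccdc80, a secreted protein of fat and stroma, at 264, 481, 322 and 681 and 94.4, 25.6, 190.1 and 289 CPM. On day 1 all 4 were above their day 0 level in members and below it in the rest. Sfrp4, a modulator of Wnt signals, stood at 19.2, 20.2, 36.2 and 214 and 14.6, 2.60, 7.50 and 36.3 CPM, highest on day 7 in both. Postn, periostin, ran the other way on day 3, with 182 CPM in members and 742 CPM in the rest, and Apoe, the lipid carrier that macrophages make in quantity, stood at 1284, 1984, 3528 and 3580.4 and 215, 427, 5949 and 2067 CPM, lower in members on day 3 alone.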

How the data were processed

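The deposited files hold raw UMI counts per gene and spot from Visium sections, made by the authors with Space Ranger (version 1.2.0 in the count table header, other versions in the methods and the protocol), and the submitters' processing notes name mm10. No normalization had been applied to these counts. Spots over tissue had been selected on the image, and the 32285 features were matched by symbol. UMIs were summed over the spots of each group and written as CPM, without the 5 markers in the total. Genes were compared where at least 10 UMIs were expected in the smaller group, and a group under 3 UMIs was entered at 3. Genes named by rule were the 10 highest and 5 lowest ratios to the rest at 50 CPM or more, the 10 highest and 10 lowest ratios to day 0 at 100 CPM or more, and the 5 highest and 5 lowest differences between the 2 groups' ratios. Further genes came from 38 gene lists, and some genes that the rule names are not reported here. The members and lists were chosen with earlier results of these data known. Ratio intervals (exact Clopper-Pearson, 95%) were made with SciPy 1.17.1 on NumPy 2.4.6 and checked on simulated data, and TMM factors with edgeR 4.0.16 in R 4.3.3. UMIs are counting units of 1 section a day, so the intervals leave out the spread between animals. Alternatives changed the cut, the depth minimum, the markers, the total, the scaling and the filter on low counts.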

Additional observations from a re-analysis of the deposited data

Results flagged for a closer look

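In 7 lists the ratio of fat-rich spots to the rest pointed one way on one day and the other way on another, by at least 1.5-fold each with counting intervals that left out 1, and none of these differences was tested, since each day has 1 section. The tendon list had a ratio of 3.39 on day 3 and 0.657 on day 7. The macrophage list gave 2.53 on day 0 and 0.614 on day 3, and the lipid-handling macrophage list 2.69 on day 1 and 0.593 on day 3. The neutrophil list gave 4.02 on day 1 and 0.461 on day 3. The T and NK cell list gave 4.59 on day 0 and 0.280 on day 3, from 10, 0, 6 and 24 UMIs in the members of days 0, 1, 3 and 7, so that day 1 gave no ratio. The cell cycle list gave 1.56 on day 7 and 0.449 on day 3. The adult myofibre list gave 1.57 on day 3 and 0.369 on day 1. For all 4 immune lists day 3 was the day with a ratio below 1. In the rest the macrophage, lipid-handling macrophage and T and NK cell lists were at their highest on that day, with 8840.4, 16037 and 15.2 CPM, and the neutrophil list on day 1, with 168 CPM. With the spots at or above the 99th percentile alone, the day 1 neutrophil ratio was 0.554, from few UMIs, and the day 3 adult myofibre ratio 0.517. The mast cell list had ratios of 2.47, 9.20, 0.666 and 8.17, and its day 3 value rested on 11 UMIs with an interval of 0.331 to 1.2.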

How the results depend on the processing

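Members at the 99th percentile numbered 21, 22, 31 and 30. The core list was above the rest under every setting tried, and on day 7 below day 0 under every one. Its direction on day 3 turned, and on day 1 its log2 ratio ran from -1.78 to 0.084. The causes were not tested. A direction is listed below as turned only where the counting interval of the main setting excluded equality. The interval of the other setting was not required to exclude it, so some turns rest on few UMIs or lie close to equality. Equal weight per spot, the scale per UMI of fat markers and the list without Scd1 were chosen after seeing the data. With the 90th percentile as the cut, the core ratio was 13.3, 13.7, 10.1 and 6.63 (days 0, 1, 3 and 7), and the core log2 ratio to day 0 was -0.69 and -0.87 (days 3 and 7). There genes 2-fold higher than the rest numbered 499 (day 7), and genes 2-fold lower numbered 117 (day 1). There the direction from day 0 turned in log2 ratio for adipogenic factors on day 1 (-0.0063). With the 99th percentile, the core ratio was 33.6, 47.0, 68.8 and 22.4 (days 0, 1, 3 and 7), and the core log2 ratio to day 0 was 0.084, 0.34 and -0.81 (days 1, 3 and 7). There genes 2-fold higher than the rest numbered 424 and 68 (days 0 and 1), and genes 2-fold lower numbered 83, 222 and 459 (days 0, 1 and 7). There genes 2-fold above day 0 numbered 140, 911 and 1768 (days 1, 3 and 7), and genes 2-fold below day 0 numbered 186 (day 1). There the ratio to the rest turned for lymphatic on day 0 (0.830), macrophage on day 1 (0.600), neutrophil on day 1 (0.554), cell cycle on day 1 (0.868), fibrous matrix on day 3 (1.11), adult myofibre on day 3 (0.517) and mural cell on day 3 (1.13). The log2 ratio to day 0 turned there for macrophage on day 1 (-0.089), tendon on day 1 (-0.29), mast cell on day 1 (0.68), mural cell on day 1 (0.54), lipid synthesis on day 3 (0.17), lipid uptake on day 3 (0.17), lipid droplet and lipolysis on day 3 (0.51) and Schwann cell on day 3 (0.38). With the day 0 cut in every section, the core ratio was 18.2, 30.7 and 10.9 (days 1, 3 and 7), and the core log2 ratio to day 0 was -0.74, 0.12 and -0.93 (days 1, 3 and 7). The log2 ratio to day 0 turned there for lipid droplet and lipolysis on day 3 (0.19). With spots from 1000 UMIs, the core ratio was 25.6 and 11.0 (days 1 and 7), and the core log2 ratio to day 0 was -0.081 and -0.92 (days 1 and 7). With spots from 5000 UMIs, the core ratio was 20.4, 8.70, 16.8 and 9.76 (days 0, 1, 3 and 7), and the core log2 ratio to day 0 was -1.78 and -0.65 (days 1 and 3). There genes 2-fold higher than the rest numbered 741 (day 1), and genes 2-fold lower numbered 101 (day 1). There genes 2-fold above day 0 numbered 982 (day 1). There the direction from day 0 turned in log2 ratio for Schwann cell on day 1 (-0.22) and adipogenic factors on day 1 (-0.48). With the score from Adipoq, Plin1 and Cidec, the core ratio was 20.7 and 16.9 (days 1 and 3), and the core log2 ratio to day 0 was -0.49 and -0.79 (days 1 and 3). There genes 2-fold lower numbered 230 and 335 (days 1 and 3). With spots chosen and measured in separate random parts of the UMIs, the core log2 ratio to day 0 was -1.04 (day 7), and genes 2-fold higher than the rest numbered 387, 578 and 620 (days 0, 1 and 7). There genes 2-fold above day 0 numbered 892 (day 1). With mitochondrial, haemoglobin and muscle genes out of the total, the core ratio was 19.6, 17.3, 20.4 and 9.22 (days 0, 1, 3 and 7), and the core log2 ratio to day 0 was -0.72, -0.71 and -1.27 (days 1, 3 and 7). There genes 2-fold lower numbered 92, 695 and 342 (days 0, 1 and 7), and genes 2-fold above day 0 numbered 985 and 1754 (days 1 and 7). There genes 2-fold below day 0 numbered 1005 and 504 (days 1 and 7). There the direction from day 0 turned in log2 ratio for adipogenic factors on day 1 (-0.16). With TMM factors, the core ratio was 16.7, 12.4 and 7.97 (days 0, 1 and 7), and the core log2 ratio to day 0 was -0.94, -0.70 and -1.56 (days 1, 3 and 7). There genes 2-fold higher than the rest numbered 328, 399 and 404 (days 0, 1 and 7), and genes 2-fold lower numbered 236, 1493 and 677 (days 0, 1 and 7). There genes 2-fold above day 0 numbered 776 and 1014 (days 1 and 7), and genes 2-fold below day 0 numbered 1337 and 874 (days 1 and 7). There the ratio to the rest turned for cell cycle on day 1 (0.841) and fibrous matrix on day 7 (0.994). The log2 ratio to day 0 turned there for adipogenic factors on day 1 (-0.37) and endothelial on day 7 (-0.0045). With no filter on low counts, genes 2-fold higher than the rest numbered 7788, 10427, 7478 and 8129 (days 0, 1, 3 and 7), and genes 2-fold lower numbered 83 (day 0). There genes 2-fold above day 0 numbered 7059 (day 1), and genes 2-fold below day 0 numbered 1015 (day 3). With equal weight per spot, the core ratio was 20.2, 24.2 and 8.83 (days 0, 1 and 7), and the core log2 ratio to day 0 was -0.043, -0.48 and -1.07 (days 1, 3 and 7). Per UMI of Adipoq, Plin1 and Cidec, the core log2 ratio to day 0 was -1.06, -0.0082 and -0.52 (days 1, 3 and 7). There the direction from day 0 turned in log2 ratio for lipid uptake on day 3 (0.0036), lipid droplet and lipolysis on day 3 (0.27), lipid uptake on day 7 (0.25) and lipid droplet and lipolysis on day 7 (0.17). Without Scd1, the core ratio was 12.1, 13.1, 7.79 and 5.69 (days 0, 1, 3 and 7), and the core log2 ratio to day 0 was -0.24, -0.95 and -1.13 (days 1, 3 and 7). No paired analysis was possible because each day has 1 section, so no replicate could be left out either. Depth was lowest on day 1, where few genes of a list had enough UMIs to be compared, and 1 section a day limits every difference.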

Other observations

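Vessel genes were higher in the members than in the rest. The endothelial list stood at 1352, 1302, 983 and 2001 CPM in members and 849.6, 462, 559 and 897 CPM in the rest on days 0, 1, 3 and 7, with ratios of 1.59, 2.82, 1.76 and 2.23. The basement membrane list had ratios of 1.32, 3.63, 1.60 and 1.63. Mural cell genes gave 1.95, 3.67, 0.914 and 2.69, and the day 3 value was 1.13 in the spots at or above the 99th percentile. The fibrous matrix list gave 2.08, 3.49, 0.793 and 1.30, with its day 3 value at 1.11 in those spots and its day 7 value at 0.994 with TMM factors.

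The BMP pathway list had ratios of 1.41, 1.84, 1.05 and 1.58, and its log2 ratios to day 0 were 0.85, 0.94 and 1.43 in members and 0.46, 1.36 and 1.26 in the rest. Bmp4, the transgene's own gene, had 24, 2, 12 and 30 UMIs in members, or 14.4, 4.04, 8.52 and 20.0 CPM, against 9.30, 2.60, 4.90 and 9.08 CPM in the rest. The counts do not separate transgene from endogenous transcript. The hypoxia list had ratios of 1.17, 1.41, 1.11 and 1.2, and the insulin response and receptor list 1.24, 2.17, 1.46 and 1.16. Slc2a4, the glucose transporter of fat and muscle that insulin regulates, stood at 249.7, 84.9, 221 and 173 CPM in members and 282, 165, 166 and 266 CPM in the rest. Antigen presentation genes had ratios of 2.28, 2.56, 0.982 and 1.09, recruited monocyte genes 1.66, 2.10, 0.780 and 1.29, B cell genes 1.05, 2.52, 1.55 and 1.07 and chemokine genes 1.99, 2.44, 1.30 and 4.76. The recruited monocyte list shares Fn1 with the fibrous matrix list. On day 0 only 1 of its 6 genes had enough counts to be compared, so its ratio is not a measure of monocytes alone. The adipokine list gave 5.63, 9.53, 1.5 and 2.58. It includes Apoe, which was lower in members on day 3. On that day 4 of 7 genes of the list compared were at least 2-fold higher in members, against 2.97% of all genes, with a median log2 ratio of 1.30. Slow myofibre genes gave 0.666, 0.404, 0.407 and 0.767, haemoglobin genes of red cells 1.83, 1.12, 0.864 and 3.02, skin epithelium genes 0.728, 1.34, 0.245 and 1.34 and brown and beige fat genes 0.757, 0.357, 1.04 and 0.435. The skin epithelium list had only 9, 4, 3 and 11 UMIs in members, so its ratios are uncertain.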
